A study of Homo sapiens with 2 samples.

Results

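Read-through genes are annotated loci whose transcripts run from one gene into the next gene on the same strand, and they carry the names of both, as in COMMD3-BMI1. The members were the rows of the deposited count table whose symbol splits at a hyphen into 2 symbols that are rows themselves, with 30 or more estimated counts in the larger of the 2 libraries. Of 136 rows with such a name, 73 were members, out of 39720 rows in the table and 13820 rows with 30 or more counts. Of the 63 rows left out, 30 had 0 counts in both libraries. The members were thus chosen by name and selected on their own estimated counts in these libraries, so their levels are a description.

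The RNA came from A549, a human lung adenocarcinoma cell line, which both groups share. The shNC group was infected with lentivirus for a control hairpin and the shDEPDC1B group with lentivirus for a hairpin against DEPDC1B, and both received polybrene at 5 µg/mL and were taken at day 2. Each group has 1 library, so no difference has a replicate check and no test was possible. All ratios are shDEPDC1B over shNC, and the bounds in brackets are 95% limits for counting alone (exact method). They leave out the error of dividing reads between overlapping genes.

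Transcription normally ends when the nascent RNA is cut at a polyadenylation signal and the polymerase is released downstream. When the polymerase passes that signal and continues into the next gene, the joint RNA can be spliced so that an exon of the upstream gene is joined to an exon of the downstream gene. The joint transcript therefore starts at the promoter of the upstream gene, repeats exons of both genes, and differs from them mainly at the junction. Some such transcripts encode fusion proteins, and others carry early stop codons and are substrates of nonsense-mediated decay.

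The sequence that sets a read-through RNA apart is short. The junctions below belong to members with large differences between the libraries or with the most counts. Each is the 30 bases of a GENCODE 29 transcript (GRCh38) around the joint, read 5′ to 3′, with the last 15 bases of the upstream gene's exon in lower case and the first 15 bases of the downstream gene's exon in capitals. All 10 lie within the annotated coding span of the transcript.
RPL17-C18orf32: gcccagaagaaaaagTTGAGGAGCTCAAGC
SYS1-DBNDD2: caacgccctcacctgGAGCTGACATGGACC
SYNJ2BP-COX16: agagtgcagcacaggTTGCTGATTGTTGGA
ARPC4-TTLL3: aggaagcctgtggagCAGAAGAAGATCTTT
TRIM6-TRIM34: tccaaagctactgggCCATCCAGGGGTCTT
FAM47E-STBD1: gagctgcaggaacagAGCATCTTCAAGAAA
HNRNPUL2-BSCL2: caatacaatcgggatGGACCCTCCATTTTC
RPL36A-HNRNPH2: attttccggaaaaagCTACACCAAAATTGC
COMMD3-BMI1: atggaacaattacagGATTTTTTATCAAGC
CHURC1-FNTB: atggatgaatttcagGCAAAAGTAGAAGAA

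These junctions skip the end of the upstream gene, the space between the genes and the start of the downstream gene. In RPL17-C18orf32 (chromosome 18, 49481681 to 49492479, minus strand) exon 5 of 7 ends at 49489359 and exon 6 begins at 49483771, an intron of 5587 bases. In TRIM6-TRIM34 (chromosome 11, 5596725 to 5644398, plus strand) the intron has 21693 bases, and in CHURC1-FNTB (chromosome 14, 64914485 to 65061803, plus strand) 78168 bases. COMMD3-BMI1 lies on chromosome 10 (22316388 to 22329542, plus strand) and RPL36A-HNRNPH2 on chromosome X (101391011 to 101412297, plus strand). The annotation held a junction between known splice sites of both parents for 43 members, 33 of them within the coding span.

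Most read-through genes had little exonic sequence of their own. GENCODE 29 lists 63 of the 73 members by symbol, and for 62 both parents lie on the same chromosome and strand. In these 62 a median of 2.94% of the exonic bases lay in neither parent, in 41 it was under 10%, and in 23 it was 0 bases, so that junction reads alone could set them apart. The highest value was 65% in ARMCX5-GPRASP2. For 71 members whose parents share chromosome and strand, the spans of the parent genes, from first to last base of their own transcripts, were separated by a median of 3516 bases, and in 11 the spans overlapped.

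The annotation did not bear out every name. In BORCS7-ASMT the symbol ASMT is that of a gene on chromosome X (1615001 to 1643081), while BORCS7 is on chromosome 10 (102854223 to 102864961) and the gene after it there is AS3MT (102869516 to 102901899), so the row named as its downstream parent is another gene. LOC400927 of LOC400927-CSNK1E was not found by symbol, and C8orf44 and SGK3 start beside each other in the annotation, against the order of the name. Of the read-through genes with exons compared, 38 have a transcript annotated as coding and 24 have none.

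The libraries held 18647290 counts in shNC and 18862371 in shDEPDC1B. DEPDC1B had 329 and 39 counts, 7.98-fold lower (log2 limits -3.51 and -2.52), in the direction of the labels. All 8 markers fixed for A549 and epithelial cells were detected, with a summed level of 28677 and 31695 scaled counts per library of standard size (CPM). Those of leukocytes, endothelium, fibroblasts and neuroendocrine cells summed to at most 11.5 CPM in any class, and CD3E and DCN were among the markers at 0 in both libraries. Not all were near 0: CD14 had 107 and 175 counts, COL1A1 99 and 105, COL3A1 80 and 105, and SYP 65 and 114. EPCAM, on the A549 and epithelial list, had fewer than each of these, with 37 and 65. ALDH1A1 alone held 10019 and 9145 CPM of that list. Together the 73 read-through rows held 18101 and 20268 counts, or 0.0971% and 0.107% of the libraries.

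The libraries differed in many read-through rows, in both directions. A row was called higher or lower at a ratio of 1.5 with an interval that excludes equality, which 19.2% of all 13820 rows met as higher and 19.5% as lower (38.8% in all). Of the 73 members 26 were higher in shDEPDC1B, 17 were lower and 30 were neither, so that 58.9% were called. The median log2 ratio of the members was 0.08, against 0.04 over all rows, whereas the median size of the log2 ratio regardless of sign was 0.78 against 0.47. Among the 9216 rows with 30 to 1000 counts 19.7% were higher and 18.2% lower (38.0% in all), and of the 68 members in that range 41 were called. Among the 63 members with an annotated transcript length 23 were higher and 12 lower, and after a loess of the ratio on that length 14 were higher and 16 lower. After the same loess 14.4% of all 12997 rows with a length were higher and 13.7% lower (28.1% in all).

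**Figure D1:**
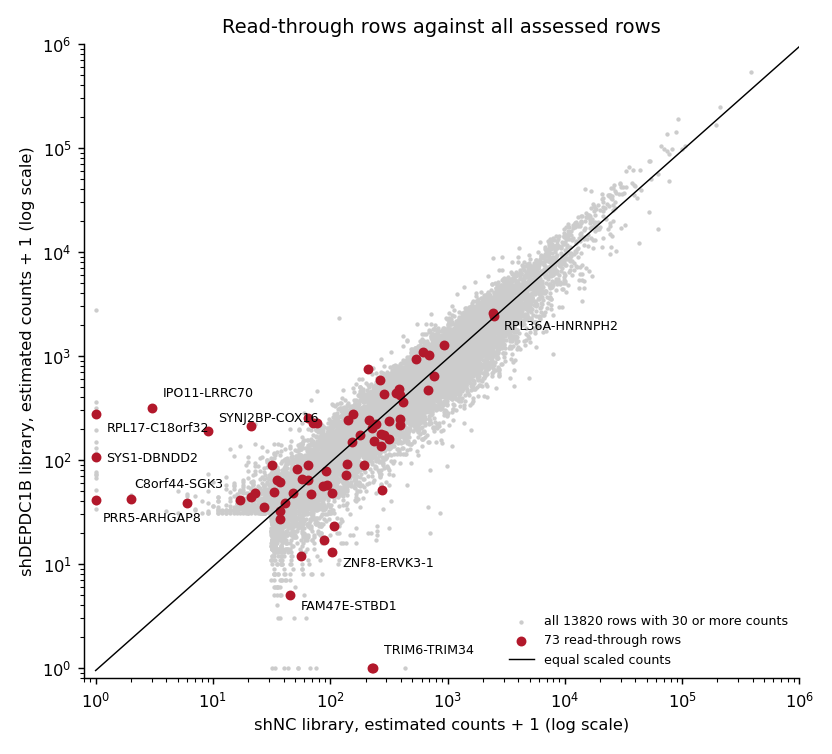
Estimated counts + 1 in the shNC library (x axis, log scale) and the shDEPDC1B library (y axis, log scale) for 73 read-through rows (red) over all 13820 rows with 30 or more counts (grey), with the line of equal scaled counts. TRIM6-TRIM34 lies on the lower edge with 0 counts in shDEPDC1B, and RPL17-C18orf32 and SYS1-DBNDD2 on the left edge with 0 in shNC.

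Some members were nearly absent from 1 library. At a ratio of 4 or more, a threshold chosen after the values were seen, 9 members were higher and 8 lower, or 23.3% of the members. Of all rows 0.55% were higher and 1.13% lower by that measure (1.68% in all), and of rows with 30 to 1000 counts 0.803% and 1.46% (2.27% in all). Of 47 members with at least 100 counts in the larger library, 4 had 0 counts in the other, against 13 of 11457 rows (0.113%) of the table, these 4 included.

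Part of this may follow from the threshold, which was the same for all rows. A row that reached 30 counts in 1 library alone was selected through its higher value, and of the 73 members 53 had 30 or more in both, 8 in shNC alone and 12 in shDEPDC1B alone. Of those 20 single-library members 18 were called, the exceptions being NEDD8-MDP1 and LOC400927-CSNK1E. Of all 13820 rows 12810 had 30 or more in both libraries, and these held 4694 of the 5360 called rows. Among the 53 with 30 or more in both, 15 were higher and 10 lower, where 18.5% and 18.1% of all rows chosen in that way were higher and lower (36.6%). In the same 53, a difference of 4-fold or more was met by ARPC4-TTLL3 and TRIM59-IFT80, where 0.461% of rows met it.

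RPL17-C18orf32, which joins the gene of a large-subunit ribosomal protein to the small gene C18orf32, had 0 counts in shNC and 274 in shDEPDC1B. With the 0 set to a floor of 3 counts it was at least 96.5-fold higher. Its parents were far more abundant and moved less: RPL17 had 9306 and 10852 counts, a log2 ratio of 0.30, and C18orf32 had 489 and 875, a log2 ratio of 0.92. The read-through row took 0 of 9795 counts of the 3 rows in shNC, which allows a share of up to 0.0306%, and 2.28% [2.02, 2.57] in shDEPDC1B.

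IPO11-LRRC70 combines the nuclear import receptor IPO11 with a leucine-rich repeat gene that lies inside it (IPO11 at chromosome 5, 62403972 to 62628582, and LRRC70 at 62578735 to 62581448, plus strand). It had 2 counts in shNC and 316 in shDEPDC1B, a log2 ratio of 7.38 [5.52, 10.4]. IPO11 itself went the other way, with 1174 and 542 counts and a log2 ratio of -1.04, and LRRC70 had 5 and 5. The sum of the 3 rows was 1181 and 863, a log2 ratio of -0.37 [-0.50, -0.24], not called at 1.5-fold, so the excess of the read-through row was not an excess of the locus.

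SYS1-DBNDD2, from the Golgi membrane protein gene SYS1 and the dysbindin-domain gene DBNDD2, had 0 and 106 counts, at least 37.3-fold higher. DBNDD2 had 88 and 26 counts, a log2 ratio of -1.68, and read-through and downstream rows together had 88 and 132. SYNJ2BP-COX16, from the genes of a mitochondrial outer membrane protein and a cytochrome c oxidase assembly factor, had 8 and 190 counts, a log2 ratio of 4.65 [3.64, 5.88]. Its parents did not pass 1.5-fold, with log2 ratios of -0.25 for SYNJ2BP and 0.46 for COX16.

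POC1B-GALNT4 joins a centriole gene to GALNT4, which encodes a transferase that starts mucin-type O-glycosylation and overlaps POC1B (chromosome 12, minus strand). The read-through row had 20 and 213 counts, a log2 ratio of 3.49 [2.83, 4.23]. Both parents fell outside 1.5-fold in the other direction, POC1B with 555 and 266 counts and GALNT4 with 804 and 148, and the 3-row sum was lower at -1.06 [-1.20, -0.92]. Read-through and GALNT4 rows added together had 824 and 361 counts, a log2 ratio of -1.11, opposite in sign to the read-through row. Some read-through counts may lie over exons of POC1B, so this sum does not measure GALNT4 alone.

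The other members at least 4-fold higher had fewer counts. PRR5-ARHGAP8, from a subunit of mTOR complex 2 and a GTPase-activating protein, was deposited at 0.01 and 39.79 counts, at least 14.1-fold higher from the rounded values. C8orf44-SGK3, which includes the kinase gene SGK3, had 1 and 41 counts, a log2 ratio of 5.44 [2.88, 10.8]. JMJD7-PLA2G4B had 5 and 38 counts, and ARPC4-TTLL3, from an Arp2/3 complex subunit and a tubulin glycylase, had 63 and 255 (log2 ratio 2.10 [1.69, 2.52]). Of these loci PRR5-ARHGAP8 was also higher in its 3-row sum (0.61), and the sums of the other 3 were not called.

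In the opposite direction TRIM6-TRIM34, from neighbouring genes of tripartite-motif ubiquitin ligases, had 232 counts in shNC and 0 in shDEPDC1B, at least 73.2-fold lower. TRIM34 alone had 110 and 228 counts, a log2 ratio of 1.13 and higher, while TRIM6 had 866 and 594 and was not called. The read-through row took 19.2% [17.0, 21.5] of the locus in shNC and 0 of 822 counts in shDEPDC1B, which allows up to 0.365%.

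ZNF8-ERVK3-1, which runs from a zinc finger gene into a locus of retroviral origin, had 102 and 12 counts, a log2 ratio of -3.01 [-4.01, -2.14]. Both parents were higher, ZNF8 at 114 and 180 counts (0.74) and ERVK3-1 at 691 and 1308, and so was the sum (0.81 [0.69, 0.93]). TRIM59-IFT80, whose downstream parent encodes an intraflagellar transport protein, had 276 and 50 counts, a log2 ratio of -2.38 [-2.85, -1.95], with TRIM59 at 0.03 and IFT80 at -0.43. FAM47E-STBD1, with a glycogen-binding protein gene downstream, had 44 and 4 counts (-3.38 [-5.32, -1.92]), and its sum was lower as well (-0.90).

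Other members at least 4-fold lower were the zinc finger pair ZNF765-ZNF761 with 87 and 16 counts, SETDB2-PHF11 with 107 and 22, and SPECC1L-ADORA2A with 55 and 11. ZNF765 and ZNF761 were lower too, at -1.14 and -0.66. SETDB2 and PHF11 were at 0.13 and 0.14, neither called.

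**Figure D2:**
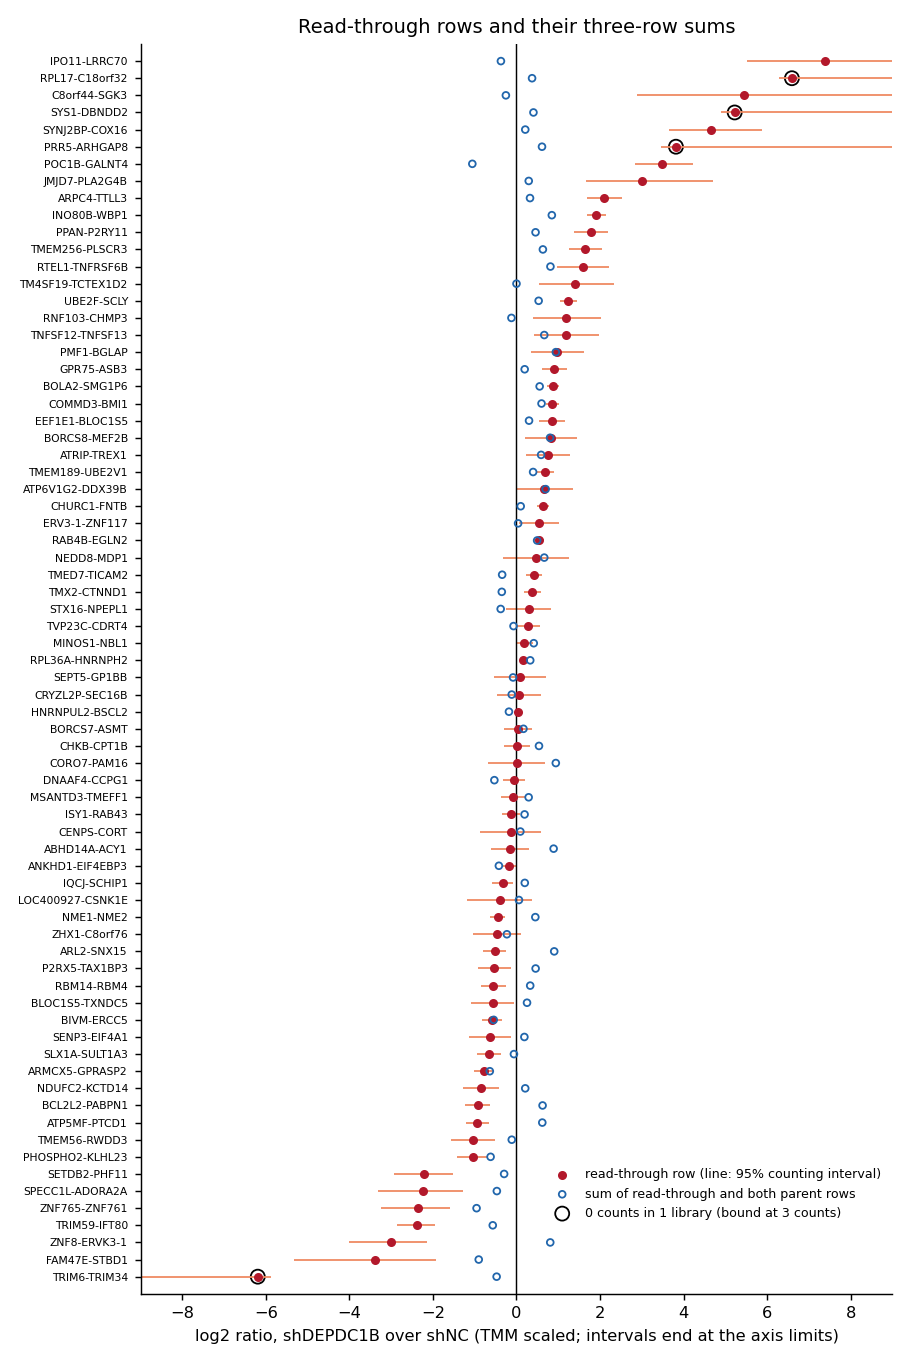
Log2 ratio of shDEPDC1B over shNC for 72 of the 73 read-through rows (red, with 95% counting intervals, cut at the axis limits) and for the sum of the read-through row and both parent rows (blue rings), ordered by the read-through ratio. Black rings mark rows with 0 counts in 1 library after rounding, drawn at the bound for 3 counts. The red points run from -6.19 to 7.38 and the blue rings from -1.06 to 0.94.

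The sums of the 3 rows of a locus lacked the extremes. A different division of reads between a read-through row and its parents would stay inside that sum. The parents hold most counts of most loci, however, with a median read-through share of 14.8% in shNC and 15.9% in shDEPDC1B. The sums would therefore be less extreme without any such division, and its part was not tested. Both parents added together, without the read-through row, were higher in 13 loci and lower in 5. The sums had log2 ratios from -1.06 in POC1B-GALNT4 to 0.94 in PMF1-BGLAP, and none reached 4-fold, where 17 read-through rows did. Their SD across loci was 0.50 against 2.24 for the read-through rows and 0.79 for all rows. Of the 73 sums 17 were higher and 6 lower (31.5%, against 38.8% of all rows), with a median of 0.21 and a median size of 0.41. Scaled by library totals 9 sums were higher instead of 17, and at 2-fold none was.

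The called read-through rows were mostly not called as loci. Of the 26 higher members the sum was higher in 9, lower in 1 and neither in 16, and of the 17 lower members it was lower in 5, higher in 3 and neither in 9. Among the 17 members with a 4-fold difference 6 had a called sum. The 4 loci whose sum was called against the read-through row were POC1B-GALNT4, ZNF8-ERVK3-1, ATP5MF-PTCD1 and BCL2L2-PABPN1. In the last, from an anti-apoptotic BCL2 relative and the nuclear poly(A)-binding protein, the read-through row had 270 and 134 counts (-0.93) and PABPN1 had 1562 and 2738 (0.89).

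**Figure D3:**
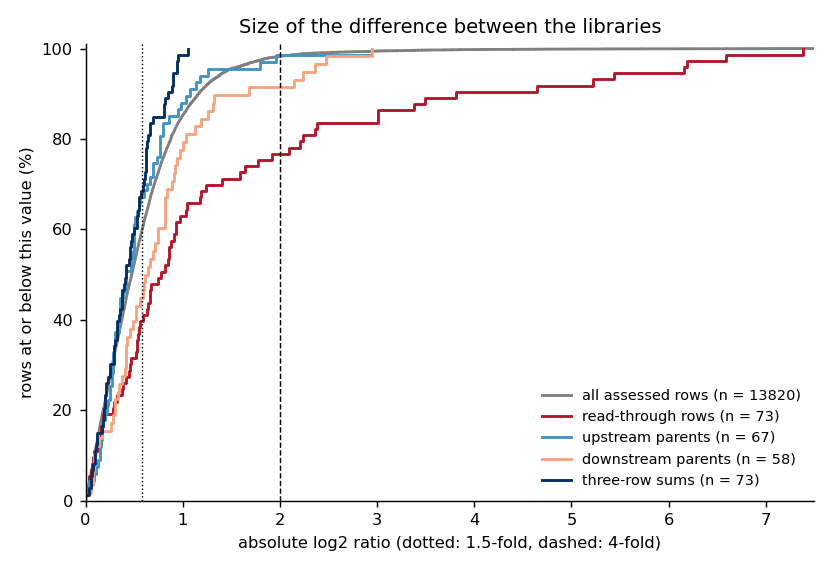
Share of rows (y axis, %) at or below each absolute log2 ratio (x axis) for all assessed rows, read-through rows, upstream parents, downstream parents and three-row sums, with lines at 1.5-fold and 4-fold. Above the 1.5-fold line the read-through curve lies to the right of the others, and its median is 0.78, and the curve of the sums ends before 4-fold.

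The parents were assessed by their own rows. The 73 read-through rows have 145 distinct parents, since BLOC1S5 is the downstream parent of 1 member and the upstream parent of another. Of 67 upstream parents with 30 or more counts 14 were higher and 8 lower (32.8% called, median size of the log2 ratio 0.42), and 1 reached 4-fold. Of 58 downstream parents 15 were higher and 16 lower (53.4%, median size 0.63), and 5 reached 4-fold, 1 higher and 4 lower. Both shares stand beside the 38.8% of all rows, of which 1.68% reached 4-fold. After the loess on transcript length 6 upstream parents were higher and 5 lower, of 59 with a length. For the downstream parents these numbers were 7 and 14, of 49 with a length. The same loess left 14.4% of all rows with a length higher and 13.7% lower (28.1% in all). A further 6 upstream and 15 downstream parents were under 30 counts in both libraries.

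The 4 downstream parents at least 4-fold lower were GALNT4, BLOC1S5, SMG1P6 and HNRNPH2. HNRNPH2, a splicing regulator on chromosome X, had 887 and 190 counts, a log2 ratio of -2.14, while RPL36A-HNRNPH2 had 2423 and 2568 (0.16 [0.08, 0.24]), not called, and at -0.45 after the loess. The 2 rows together had 3310 and 2757 counts, a log2 ratio of -0.18 [-0.26, -0.11]. The HNRNPH2 row was thus 4.42-fold lower alone, and the 2 rows were 1.14-fold lower together. Some read-through counts may lie over exons of RPL36A, so this sum does not measure HNRNPH2 alone. BLOC1S5, a subunit of the complex that forms lysosome-related organelles, had 122 and 15 counts (-2.94), while EEF1E1-BLOC1S5 had 140 and 240 (0.86) and the 2 together 262 and 255 (0.04 [-0.21, 0.30]).

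BMI1, a Polycomb group gene, showed the same arithmetic. Its own row had 261 and 108 counts, a log2 ratio of -1.19, and COMMD3-BMI1 had 539 and 925, a log2 ratio of 0.86 [0.70, 1.01]. Together these were 800 and 1033, a log2 ratio of 0.45 [0.31, 0.58], opposite in sign to the row of BMI1. Some read-through counts may lie over exons of COMMD3, so this sum does not measure BMI1 alone. EGLN2, an oxygen-sensing prolyl hydroxylase gene, had 464 and 267 counts alone (-0.72) and 1390 and 1531 with RAB4B-EGLN2 (0.22 [0.11, 0.33]).

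In 19 members both the read-through row and its downstream parent were called, in opposite directions in 11 and in the same direction in 8. Other pairs of rows were not counted in this way, so there is no background for these numbers. The read-through row was higher and the downstream parent lower in BOLA2-SMG1P6, C8orf44-SGK3, COMMD3-BMI1, EEF1E1-BLOC1S5, POC1B-GALNT4 and SYS1-DBNDD2. The reverse held in ATP5MF-PTCD1, BCL2L2-PABPN1, TMEM56-RWDD3, TRIM6-TRIM34 and ZNF8-ERVK3-1. With the upstream parent 11 pairs were called, 6 in the same and 5 in opposite directions. How the reads of these loci were shared out in each library was not tested.

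**Figure D4:**
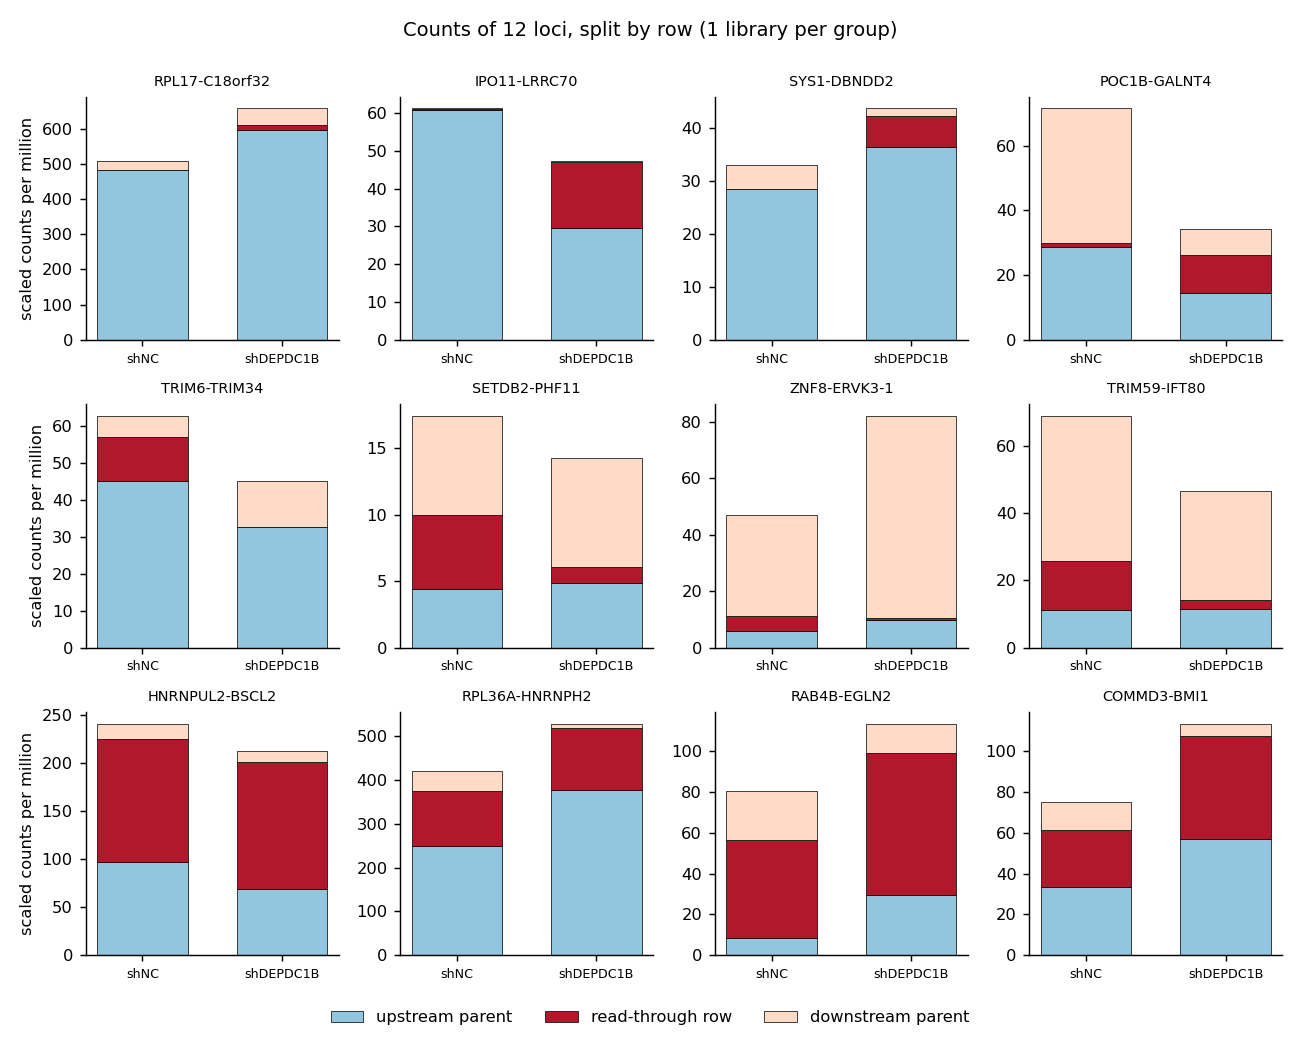
Scaled CPM in each library for 12 loci, stacked from upstream parent (blue) through read-through row (red) to downstream parent (pale). In IPO11-LRRC70 and POC1B-GALNT4 the red part appears in shDEPDC1B while the bar as a whole is lower, and in TRIM6-TRIM34 it is present in shNC alone.

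The share of a locus in its read-through row does not depend on how the libraries are scaled. It is a share of counts, and rows differ in transcript length, so it is not a share of molecules. The median over members was 14.8% in shNC and 15.9% in shDEPDC1B, with a range from 0 to 92.6% and from 0 to 68.5%. The odds of the read-through row against both parents were at least 1.5-fold higher in shDEPDC1B in 25 members and at least 1.5-fold lower in 25, each with an exact interval that excludes 1, and 23 members met neither. Members with 30 or more counts in 1 library alone were selected through that higher value, which favours a shift of the share. Among the 53 with 30 or more in both, 15 had higher and 18 lower odds by that rule. No other rows of the table have such a share, so there is no background for these counts.

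The odds ratio had no finite value in RPL17-C18orf32, SYS1-DBNDD2 and PRR5-ARHGAP8, which had 0 counts in shNC. The next were IPO11-LRRC70, from 0.169% [0.021, 0.610] to 36.6% [33.4, 39.9] of the locus, C8orf44-SGK3, from 0.543% to 28.1%, and POC1B-GALNT4, from 1.45% to 34.0% (odds ratio 34.9 [21.7, 59.1]). Members at the low end included TRIM6-TRIM34, with an odds ratio of 0, ZNF8-ERVK3-1, from 11.2% to 0.80% (odds ratio 0.0637 [0.0317, 0.117]), IQCJ-SCHIP1, FAM47E-STBD1 (12.6% to 2.26%) and SETDB2-PHF11 (31.8% to 8.46%). The row of IQCJ-SCHIP1 itself was not called, with 313 and 236 counts. IQCJ had 0 counts in both libraries and SCHIP1, its downstream parent, had 25 and 131, so the read-through share went from 92.6% [89.3, 95.2] to 64.3% [59.2, 69.2].

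Of the 25 members with a higher share 20 had a read-through row that was itself called higher, and of the 25 with a lower share 15 had one called lower. In the other 5 and 10 the read-through row was not called. CORO7-PAM16, which ends in the gene of a mitochondrial import motor subunit, had 40 and 38 counts (0.01 [-0.67, 0.68]), while CORO7 had 100 and 214 and PAM16 95 and 176, and its share went from 17.0% to 8.88%.

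**Figure D5:**
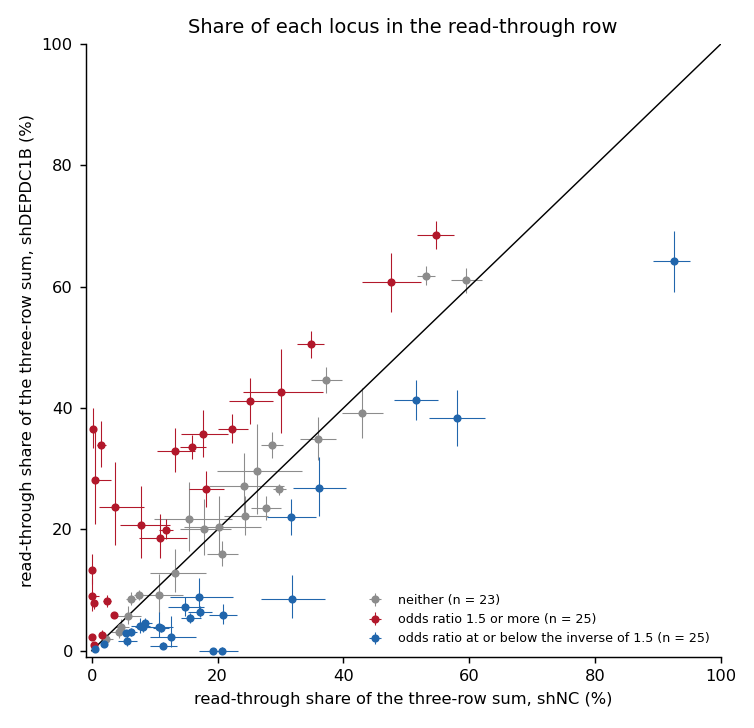
Read-through share of the three-row sum in shNC (x axis, %) and shDEPDC1B (y axis, %) for 73 loci, with exact 95% binomial intervals, coloured by the odds ratio. Red points (25) and blue points (25) lie on either side of the diagonal, and IQCJ-SCHIP1 is the point at 92.6% and 64.3%.

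The 8 most abundant read-through rows had log2 ratios from -0.45 to 0.88. HNRNPUL2-BSCL2, from an RNA-binding protein gene and the seipin gene of lipid droplet assembly, had 2474 and 2402 counts, a log2 ratio of 0.04 [-0.04, 0.12]. Scaled by library totals the ratio was -0.06. Its parents were not called (log2 ratios of -0.49 and -0.42), and its share of the locus was 53.2% and 61.8%. The printed junctions of HNRNPUL2-BSCL2 and SYS1-DBNDD2 come from transcripts that the annotation puts in the nonsense-mediated decay class. RAB4B-EGLN2 had 925 and 1264 counts (0.53 [0.41, 0.65]) at shares of 59.6% and 61.0%, while its upstream parent RAB4B, an endosomal GTPase gene, had 164 and 540 (1.80).

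CHURC1-FNTB, which ends in the gene of the farnesyltransferase beta subunit, had 689 and 1015 counts, a log2 ratio of 0.64 [0.50, 0.78], called higher, but not when scaled by library totals (0.54). FNTB itself had 192 and 176 counts (-0.05), fewer than the read-through row. BOLA2-SMG1P6 had 621 and 1081 counts (0.88 [0.74, 1.02]). After a loess of the ratio on transcript length BOLA2-SMG1P6 (0.34), COMMD3-BMI1 (0.41) and CHURC1-FNTB (0.20) were no longer called. BOLA2 and SMG1 pseudogenes have near copies in the genome, so reads of this locus are uncertain beyond the sharing with its parents. ANKHD1-EIF4EBP3 had 759 and 635 counts (-0.18, and 0.40 after the loess) and NME1-NME2, from the nucleoside diphosphate kinase genes, 685 and 474 (-0.45 [-0.62, -0.28]), neither of them called.

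With the libraries added together, counts above those of both parents combined were found in 5 members, namely HNRNPUL2-BSCL2, RAB4B-EGLN2, BOLA2-SMG1P6, IQCJ-SCHIP1 and TVP23C-CDRT4. TVP23C-CDRT4 had 211 and 243 counts against 232 and 142 for TVP23C and 0 and 15 for CDRT4. Among the 20 members with at least 300 counts in the larger library 7 were higher and 3 lower, and 1 reached 4-fold, IPO11-LRRC70. Of all 8987 rows at that level 18.7% were higher and 19.1% lower (37.8% in all), and 0.0779% were 4-fold higher and 0.49% 4-fold lower (0.567% in all).

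At the threshold the members just inside were NEDD8-MDP1 with 26.13 and 34.06 counts, LOC400927-CSNK1E with 36.01 and 25.97, and CENPS-CORT with 36.35 and 30.8. Just outside were BLOC1S1-RDH5 with 2.52 and 25.92, WRB-SH3BGR with 24.68 and 10.41, and TEN1-CDK3 with 24.24 and 12.12.

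Members with and without exonic sequence of their own were set side by side. The 23 members with no base outside their parents had a median size of the log2 ratio of 0.57, with 2 at 4-fold or more, and the 39 with such bases 0.91, with 9 at 4-fold or more. With 10% or more outside the parents the 21 members had a median of 0.64. The other 11 members, not in GENCODE by symbol or without parents side by side, had a median of 2.20 and included 6 of the 17 at 4-fold or more, so this comparison leaves them out. By share of the locus, the 28 members whose mean share was under 10% included 10 at 4-fold or more, the 30 between 10% and 30% included 7, and the 15 at 30% or more included none. No test was made of these differences, and the median larger count was 102 in the first and 393 in the last of the share groups. It was 274 in the 23 members with no base outside their parents and 180 in the 39 with such bases. The mean share comes from the same counts as the ratio. A row nearly absent from 1 library has a lower mean share for that reason alone. The share groups therefore cannot show whether the share and the size of the difference go together.

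All 73 read-through rows had values that were not whole numbers, as had 72 of the 73 upstream and 69 of the 73 downstream parent rows listed with them, against 84.0% of all 13820 rows. A value that is not whole can arise where the estimation divided reads between rows. How each value arose was not tested. ATP6V1G2-DDX39B was the 1 member with values that were not whole hundredths.

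Genes that act on transcript ends and on faulty transcripts were described from lists. Of 20 cleavage and polyadenylation factors 3 were higher and 4 lower, where 19.2% of all rows were higher and 19.5% lower, and the median was 0.04, as over all rows. After the loess on transcript length 5 of the 20 were higher and none was lower, so the 4 lower calls given here were lost. Among all rows with a length 14.4% were higher and 13.7% lower after it. The scaffold SYMPK was at 0.69, CPSF1 at 0.77, PABPN1 (itself a parent here) at 0.89, and PCF11, which couples cleavage to termination, at -0.73 [-0.89, -0.58], with RBBP6 at -0.74, CPSF2 at -0.67 and CPSF6 at -0.62.

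Of 12 termination factors none was higher and 6 were lower, where 19.5% of all rows were lower, with a median of -0.57 against 0.04 over all rows. SCAF4, which restrains use of early polyadenylation sites, had 698 and 223 counts (-1.57 [-1.79, -1.35]), CDK12 was at -0.77 and TTF2 at -0.70, while the exonuclease XRN2 was at -0.49 and not called. After a loess of the ratio on transcript length, over all genes with a length, 2 of the 12 were lower and 1 higher. Of all rows with a length 13.7% were then lower and 14.4% higher.

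Of the 6 genes of the U1 particle and its partners, which protect transcripts from early polyadenylation, SNRNP70 (0.87) and SNRPA (0.68) were higher and LUC7L2 (-1.24 [-1.38, -1.09]) lower, beside 38.8% of all rows called, and after the loess on length none was higher. Of 14 nonsense-mediated decay factors MAGOH was higher (0.89) and 4 were lower, again beside 38.8% of all rows called. The kinase SMG1 had 5029 and 1359 counts (-1.81 [-1.90, -1.72]), uncertain because of its pseudogene copies, UPF2 was at -0.86 and CASC3 at -0.63, and the core helicase UPF1 at 0.06. After the loess 1 of the 14 was lower. For both lists this stands beside 14.4% of all rows with a length higher and 13.7% lower after the loess. The part of these genes in the read-through rows was not tested.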

How the data were processed

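The authors deposited estimated counts for each gene symbol. Bowtie2, RSEM and hg38 are named in the submitters' processing notes, without versions. The annotation and strand setting were not given in the sources used here. RSEM divides reads that fit several transcripts by a model, so read-through and parent rows carry an error that counting intervals leave out. Estimated counts were rounded to whole numbers, and the threshold of 30 was applied to the deposited values. Libraries were scaled with TMM factors (1.03 for shNC, 0.967 for shDEPDC1B; edgeR 4.0.16, R 4.3.3). With 1 library per group no p-value was computed. Ratio and share intervals are Clopper-Pearson 95% intervals, odds ratios are conditional with exact intervals, and a count of 0 was set to 3 counts. Without molecular identifiers, these bounds and floors describe counting error alone.

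Loci and sequences come from GENCODE 29 (GRCh38), matched by symbol, and parents were taken without transcripts tagged as read-through. Steps were tested on simulated data. Genes were named by rule: the 8 members with most counts, the 6 highest and 6 lowest by the interval bound nearest to equality, the 5 highest and 5 lowest odds ratios, 3 on each side of the threshold, members above both parents, and up to 4 called genes of each factor list. Others are named where a count is small or a parent stands out, after their values were seen. Members and lists were chosen with earlier results of these data known. Alternatives included DESeq2 1.42.0 size factors, library totals, upper-quartile factors, other thresholds and a loess on transcript length. Some items that the naming rule selects are not reported here.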

Additional observations from a re-analysis of the deposited data

How the results depend on the processing

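No paired analysis was possible because each group has 1 library, so no replicate could be left out. DEPDC1B and the called members named by rule kept their direction under the scalings. After the loess on transcript length, DEPDC1B and those of these members with an annotated length kept it too. IPO11-LRRC70, C8orf44-SGK3, ZNF8-ERVK3-1, TRIM59-IFT80, ZNF765-ZNF761 and SETDB2-PHF11 had no annotated length, so the loess gave no value for them. Members without a call changed sign: HNRNPUL2-BSCL2 (0.04) with DESeq2 size factors (-0.02) and library totals (-0.06), and after the loess RPL36A-HNRNPH2 (0.16 to -0.45), ANKHD1-EIF4EBP3 (-0.18 to 0.40) and NEDD8-MDP1 (0.47 to -0.14). CHURC1-FNTB lost its call with library totals (0.54) and after the loess on transcript length (0.20), as did BOLA2-SMG1P6 (0.34) and COMMD3-BMI1 (0.41) after the loess, which gave NME1-NME2 a call (-0.94).

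Higher and lower members numbered 26 and 17. With a threshold of 100 counts 16 of 47 members were higher and 13 lower, beside 2189 and 2180 of 11457 rows. With 30 in both libraries 15 of 53 were higher and 10 lower, beside 2372 and 2322 of 12810 rows. At 2-fold 17 of 73 members were higher and 10 lower, and at 4-fold 9 and 8. After the loess 14 members were higher. The loess could use 63 members, of which 23 were higher and 12 lower without it. Higher upstream parents (14 of 67) were 8 of 44 with 100 counts, 4 of 67 at 2-fold and 6 of 59 after the loess. Lower ones (8 of 67) were 3 of 44 with 100 counts, 3 of 49 with 30 in both, 4 of 67 at 2-fold and 5 of 59 after the loess. Higher downstream parents (15 of 58) were 26 of 75 with a threshold of 10 counts, beside 2924 of 16730 rows. At 2-fold they were 6 of 58 and after the loess 7 of 49. Lower ones (16 of 58) were 9 of 36 with 30 in both and 7 of 58 at 2-fold.

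Higher 3-row sums (17 of 73) were 11 with DESeq2 size factors, 9 with library totals, and 0 at 2-fold and at 4-fold. They were 7 of 47 with 100 counts and 5 of 63 after the loess. Lower sums (6 of 73) were 2 of 53 with 30 in both, and 1 at 2-fold and 0 at 4-fold. Of all 13820 rows 809 were higher and 1236 lower at 2-fold, and 76 and 156 at 4-fold. With DESeq2 size factors 2281 of them were higher and 2967 lower, and with library totals 2026 and 3198. After the loess 1870 of 12997 rows were higher and 1776 lower. Over the 59 upstream parents with a length the loess gave a median of -0.0058, against 0.27 over all 67 without it. Over 63 sums it gave 0.0107, against 0.21 over all 73. A sum was corrected at the length of its read-through transcript, not at those of its parents. Members with a higher share (25) were 16 at an odds ratio of 2 and 15 with 30 in both. Those with a lower share (25) were 17 at an odds ratio of 2 and 18 with 30 in both.

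At 2-fold the factor lists held 0 higher and 0 lower cleavage factors, 2 lower termination factors, 0 higher U1 genes, and 0 higher and 1 lower decay factor. After the loess they held 5 higher and 0 lower cleavage factors, 2 lower and 1 higher termination factor, 0 higher U1 genes and 1 lower decay factor. Among all rows with a length 14.4% were then higher and 13.7% lower. The same 20, 12, 6 and 14 genes were assessed in each case. A threshold of 100 counts, or of 30 in both libraries, assesses fewer members, parents and sums, and the cause of the other moves was not tested. The 4-fold ratio was chosen after seeing the data.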
